A study of Mus musculus with 24 samples.

Results

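The subject of this report is the brain endothelium of mice that lack the clock gene Bmal1 in endothelial cells, compared between the light phase and the dark phase of the day. Of 24 RNA-seq libraries in the series, the 12 from mutant mice were chosen by genotype and time point. The light phase is represented by 6 of them, from 2 mice each at ZT2, ZT6 and ZT10, and the dark phase by the other 6, from 2 mice each at ZT14, ZT18 and ZT22. Zeitgeber time (ZT) counts hours from lights on, and the mice lived in 12 h of light and 12 h of darkness, so that the lights went off at ZT12. The mutants carried Bmal1fl/fl; Tie2cre and the controls Bmal1fl/fl without the Cre, both labelled with the strain C57BL/6J. The floxed exon of Bmal1, a gene listed as Arntl, is shared by both genotypes, and the Tek promoter (Tie2) that drives the Cre is used in endothelial cells and is also active in blood-forming cells. Both sexes were used, and the age of these mice is not given in the sources used here. Each library came from 1 mouse, whose CD31-positive cells were sorted from dissociated brain after magnetic removal of CD90-positive cells and exclusion of dead cells, a procedure that took about 4 h.

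CD31 (Pecam1) marks the endothelial cells that line blood vessels, and in the brain these cells form the blood-brain barrier with tight junctions, nutrient carriers and efflux pumps. BMAL1 pairs with CLOCK or NPAS2 to switch on genes with E-box sequences, among them the Per, Cry and Rev-erb genes, whose products feed back on the pair. A cell without BMAL1 loses this loop, yet in a living animal it still meets daily changes that come from outside the cell, such as those of glucocorticoid hormones, body temperature, feeding and blood flow. Genes that respond to such signals, among them heat shock genes, glucocorticoid targets and flow-responsive transcription factors, are the ones usually followed when a tissue clock has been removed. The comparison of dark and light in the mutants therefore asks which transcripts differ between night and day in endothelium whose own clock gene was targeted.

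Library totals were 6136404 to 6577585 normalized reads in the 12 mutant libraries, after the authors' scaling of all libraries to similar depth, which hides how deeply each was sequenced. All 11 endothelial markers checked passed the filter on low counts, and Pecam1 lay between 1044 and 1667 CPM in the mutants, where CPM are counts scaled to a common library total. The mutant libraries of ZT6 and ZT18 carry consecutive numbers in their labels and a second barcode index that the other 8 do not have, and they stood apart from the other 8. Their summed microglial markers were 251 to 338 CPM, against 2183 to 5225 CPM in the others, and mitochondrial genes took 2.68% to 3.90% of their reads, against 5.78% to 14.3%. Each phase holds 2 libraries of the first kind and 4 of the second. This division, called the series here, was a covariate in the fits reported, though not in every alternative fit. The 2 mutant libraries of ZT14 also have label numbers apart from those of the other 10, and because both belong to the dark phase, that difference cannot be told apart from ZT14 itself. Arntl had 13.3 to 43.4 CPM in the light, median 32.7, and 32.1 to 56.9 CPM in the dark, median 38.5, but its count covers the whole gene and not the deleted exon alone, so it does not check the deletion.

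No gene passed the test of dark against light in the mutants. Of 15493 genes, 0 had an adjusted p under 0.05 (0% called), and the lowest adjusted p was 0.444 (edgeR's quasi-likelihood test with Benjamini-Hochberg adjustment). Without adjustment, 436 genes were higher in the dark at p under 0.05 (2.81% of those tested) and 403 were lower (2.60%), 839 in all. DESeq2 called 6 genes, of which Id1, Klf2, Hspb1, Ace and Sh3bgrl2 were higher in the dark and Dscam lower (adjusted p from 0.0331 to 0.0469), and a model with each of the 6 time points as its own level, which takes the spread only from mice of the same time point, called 2. Without the filter on low counts beyond 1 read, 23504 genes were tested and 41 called. Of the genes described below, these included Id1, Klf2, Klf4, Jund, Bcl6b, Arid5a, Ace, Lamc3, Plat, Map3k6, Hspb1, Hsph1, Hspa1a, Hspa1b, Tagln, Acta2 and Ttr with the dark higher and Mdn1, Kcnj10, Nr1d1, mt-Nd2, mt-Nd3 and mt-Cytb with the dark lower (adjusted p from 3.6e-09 for Map3k6 to 0.0464 for Klf4). The sex-linked gene Xist was also among the 41, with the dark higher (log2 fold change 0.92, adjusted p = 1.6e-05 by edgeR's test). Under the alternatives its log2 fold change ran from -1.55 to 10.2. With the filter used here, 0 of 5 sex-linked genes were at an unadjusted p under 0.05. How the sexes fall over the phases is not described here. The dark and light values of 58 genes did not overlap within either series with the dark higher (0.374%). Those of 47 did not overlap with the dark lower (0.303%). The median log2 fold change over all genes was -0.0042, with positive values here and below standing for a higher level in the dark. The common biological coefficient of variation between mice was 40.5%. Because no gene passed over all genes, the genes below are described by their values, and lists of genes by how many of them lay at an unadjusted p under 0.05 in each direction, to be read against the shares over all genes. Of the 41 such list counts of 1 or more, those of cell type markers included, 23 became 0 without some single library and 31 without some time point. Fewer cells of a type and less RNA per cell cannot be told apart in these bulk samples.

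The 10 genes with the smallest p among those higher in the dark included the transcriptional regulators Id1 and Klf2 and the heat shock gene Hspb1, none of which passed the adjustment. Id1 (ENSMUSG00000042745, chromosome 2 of GRCm38 from 152736251 to 152737410), an inhibitor of basic helix-loop-helix factors and a classical target of bone morphogenetic protein signalling, had 118 to 252 CPM in the light, median 156, and 178 to 376 CPM in the dark, median 266, with a dark-light log2 fold change of 0.63 ± 0.13 (SE, n = 12, adjusted p = 0.444). The means were 134, 240.3 and 147 CPM at ZT2, ZT6 and ZT10 and 266, 356 and 179 CPM at ZT14, ZT18 and ZT22. Within each series every dark-phase mouse was above every light-phase mouse, while the ZT22 mice lay below the ZT6 mice. Klf2 (ENSMUSG00000055148, chromosome 8 from 72319033 to 72321656), a transcription factor that endothelial cells induce under laminar flow, had 320.1 to 1029 CPM in the light, median 510.3, and 651 to 1346 CPM in the dark, median 964, with a dark-light log2 fold change of 0.73 ± 0.16 (SE, n = 12, adjusted p = 0.444). Its lowest mean was that of ZT2 (372 CPM) and its highest that of ZT18 (1213 CPM), and the ZT6 mice reached into the range of the dark phase. With the time points as separate levels it was one of the 2 genes called (adjusted p = 0.0478). Hspb1 (ENSMUSG00000004951, chromosome 5 from 135887919 to 135889563), which encodes a small heat shock protein, had 43.1 to 148 CPM in the light, median 66.4, and 85.5 to 213 CPM in the dark, median 121, with a dark-light log2 fold change of 0.83 ± 0.17 (SE, n = 12, adjusted p = 0.444). One ZT6 mouse, at 148 CPM, was above 4 of the 6 dark-phase mice, and the 2 ZT18 mice were the highest of all.

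**Figure D1:**
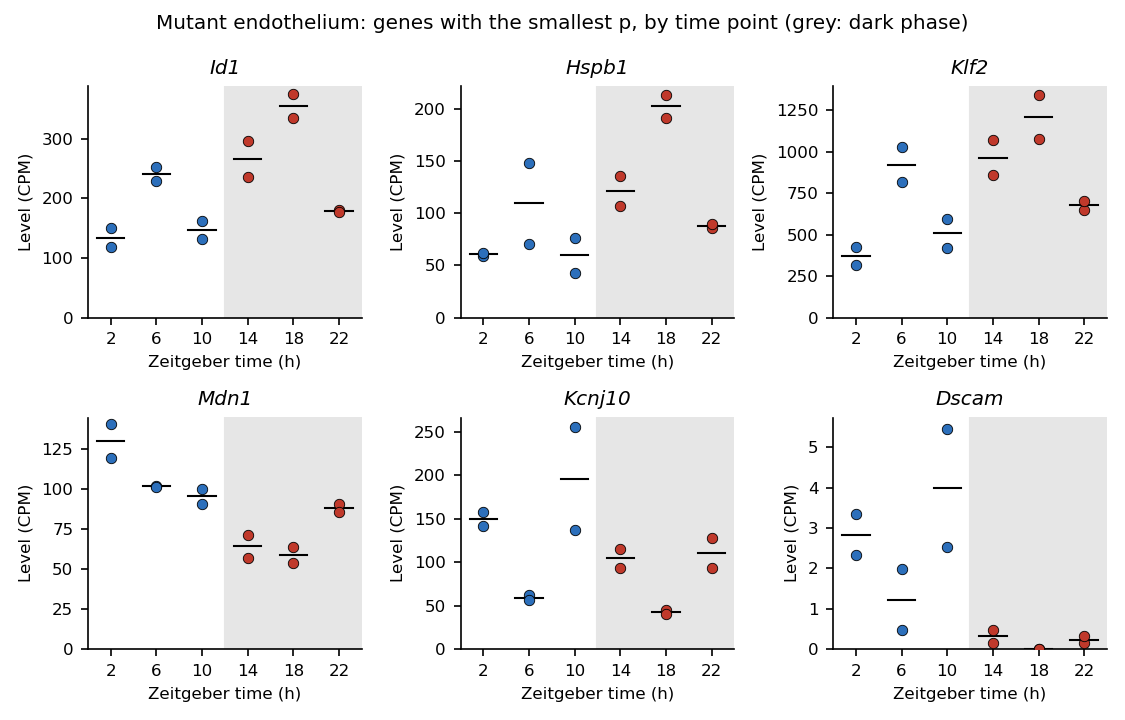
Level in CPM of the 3 genes with the smallest p on each side of the mutant comparison, against zeitgeber time in hours, with 1 point per mouse (blue in the light, red in the dark) and a bar at the mean of the 2 mice of a time point. Id1, Hspb1 and Klf2 are highest at ZT18, Mdn1 is lowest at ZT18 and ZT14, and Dscam is at or under 0.470 CPM in every dark-phase mouse.

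The other 7 genes of that group had log2 fold changes from 0.43 to 0.96. Sh3bgrl2 had 10.2 to 17.3 CPM in the light, median 13.2, and 20.9 to 34.5 CPM in the dark, median 23.7, and every dark-phase mouse was above every light-phase mouse. The same separation was found for Ldha, which encodes the lactate dehydrogenase subunit that favours lactate formation and had 118 to 132 CPM in the light, median 124, and 139.8 to 209 CPM in the dark, median 166 (log2 fold change 0.43 ± 0.11 SE, adjusted p = 0.757). Ace, the enzyme that makes angiotensin II and sits on the endothelial surface, had 95.5 to 144 CPM in the light, median 122, and 135 to 218 CPM in the dark, median 182. Lamc3, a laminin chain of basement membranes, had 75.0 to 108 CPM in the light, median 91.9, and 102 to 182 CPM in the dark, median 149. Bcl6b, a transcriptional repressor, had 36.6 to 99.0 CPM in the light, median 62.8, and 79.8 to 178 CPM in the dark, median 101. Ace and Lamc3 did not overlap within either series, whereas Bcl6b did. Arid5a, an RNA-binding protein that stabilises inflammatory transcripts, and Dusp6, a phosphatase that switches off ERK kinases, had log2 fold changes of 0.59 and 0.45. These 10 genes were picked by their p, so that the separation of their groups is a description of them and not a further test. In controls the same 10 genes had log2 fold changes between 0.04 (Bcl6b) and 0.41 (Ace).

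On the other side, Mdn1 (ENSMUSG00000058006, chromosome 4 from 32657119 to 32775217), a very large ATPase needed for maturation of the large ribosomal subunit, was lower in the dark. It had 90.95 to 141 CPM in the light, median 102, and 54.0 to 90.8 CPM in the dark, median 67.8, with a dark-light log2 fold change of -0.64 ± 0.14 (SE, n = 12, adjusted p = 0.444), and every dark-phase mouse was below every light-phase mouse. Kcnj10, the potassium channel Kir4.1 of astrocytes and oligodendrocytes, had 56.7 to 256 CPM in the light, median 139, and 40.2 to 127 CPM in the dark, median 93.2, a log2 fold change of -0.62 (adjusted p = 0.742). Its level moved with the series, at 59.2 and 42.3 CPM at ZT6 and ZT18 against 104 to 196 CPM at the other time points. The astrocyte marker Slc1a2, a glutamate transporter gene, had 457 to 2404 CPM in the light, median 1362, and 491 to 1407 CPM in the dark, median 1164, and was likewise low at ZT6 and ZT18. When the summed markers of microglia, mural cells, red cells and neural cells were added as covariates, the log2 fold change of Kcnj10 was -0.39 and that of Mdn1 was -0.71. Pigb, an enzyme of glycosylphosphatidylinositol anchor synthesis, had 11.8 to 15.2 CPM in the light, median 13.4, and 4.50 to 8.43 CPM in the dark, median 6.19. Gstm4, a glutathione S-transferase, had 3.50 to 8.33 CPM in the light, median 4.57, and 0.627 to 1.79 CPM in the dark, median 1.04. Both were separated over all 12 mice. Dpp4, a dipeptidyl peptidase of the cell surface, had 31.6 to 53.7 CPM in the light, median 40.9, and 19.4 to 36.4 CPM in the dark, median 25.7, separated within each series only. Dscam, a cell adhesion gene of neurons, had 3 to 34 normalized reads per light-phase mouse and 0 to 3 per dark-phase mouse, so that its difference rests on very few reads. Diaph2, a formin that builds actin filaments, and Ttc39b had log2 fold changes of -0.53 and -0.63, and the remaining 2 of the 10 were gene models without a described product.

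The heat shock genes formed the list with the highest share of members at an unadjusted p under 0.05. These genes encode chaperones that refold damaged proteins, and their transcription is driven by heat shock factor 1 when cells are warmed or stressed. All 19 on the list were tested, all 19 had a positive log2 fold change, and 10 of the 19 were at an unadjusted p under 0.05 with the dark higher, against 2.81% of all genes, with a list median of 0.34. None passed the adjustment over all genes. DESeq2 called 1 of them, Hspb1 (adjusted p = 0.043). Without the filter on low counts, edgeR's test called Hspb1, Hsph1, Hspa1a and Hspa1b (adjusted p = 1.3e-05, 1.6e-05, 1.0e-05 and 0.00038). The log2 fold changes hardly moved, at 0.79 for Hspa1a there against 0.78 with the filter, and that fit also called the sex-linked gene Xist. What made these calls appear was not tested. Hspb1 is described above. Hsph1, a partner chaperone of the HSP70 proteins, had 34.9 to 119 CPM in the light, median 75.8, and 88.2 to 215 CPM in the dark, median 122 (log2 fold change 0.81 ± 0.23 SE, exact permutation p = 0.00952, two-sided, with the phases exchanged within each series). The inducible HSP70 gene Hspa1a had 70.2 to 219 CPM in the light, median 130.2, and 120.3 to 425 CPM in the dark, median 219 (log2 fold change 0.78 ± 0.27 SE, exact permutation p = 0.0571). Its near-identical neighbour Hspa1b had 39.6 to 172 CPM in the light, median 82.5, and 92.8 to 259.9 CPM in the dark, median 139.9 and a log2 fold change of 0.71, and reads can be shared between these copies. In both the highest value was that of the first ZT18 mouse and the phases overlapped. Among the constitutive chaperones, Hspa8 had 1108 to 1800 CPM in the light, median 1375, and 1417 to 2556 CPM in the dark, median 1772. Hsp90ab1 had 1665 to 2871 CPM in the light, median 2006, and 1964 to 3751 CPM in the dark, median 2439. Their log2 fold changes were 0.40 and 0.34, with overlapping groups. The co-chaperones Fkbp4, Ahsa1, Stip1 and Dnaja1 had log2 fold changes of 0.42, 0.52, 0.38 and 0.40. The 9 members above that p ran from 0.0076 (Hspa4) to 0.34 (Hspa4l), with Hsp90aa1 at 0.20 and Dnajb1 at 0.24.

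Summed over the list, the heat shock genes took 6712 and 4549 CPM in the 2 mice of ZT2, 7071 and 4797 CPM at ZT6, and 5807 and 4679 CPM at ZT10. In the dark phase the sums were 7390 and 5682 CPM at ZT14, 9888 and 7338 CPM at ZT18, and 6189 and 6850 CPM at ZT22. The light and dark sums overlapped, and at 5 of the 6 time points the first mouse was above the second. The median log2 fold change of the list was positive in the ZT6 and ZT18 libraries alone (0.50) and in the other 8 alone (0.37). Without ZT6, or without ZT18, the count of 10 members went to 4, although the list medians were then 0.36 and 0.37. With the markers of other cell types as covariates the count was 5. The 2 cold-inducible genes, Cirbp and Rbm3, which encode RNA-binding proteins made at lower temperature, had negative values. Cirbp had 3.98 to 34.0 CPM in the light, median 17.3, and 5.33 to 18.3 CPM in the dark, median 13.6 (log2 fold change -0.50 ± 0.38 SE). Rbm3 had 43.3 to 80.8 CPM in the light, median 75.8, and 54.0 to 70.0 CPM in the dark, median 59.4 (log2 fold change -0.20 ± 0.14 SE), and neither was at an unadjusted p under 0.05 in the mutants.

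**Figure D2:**
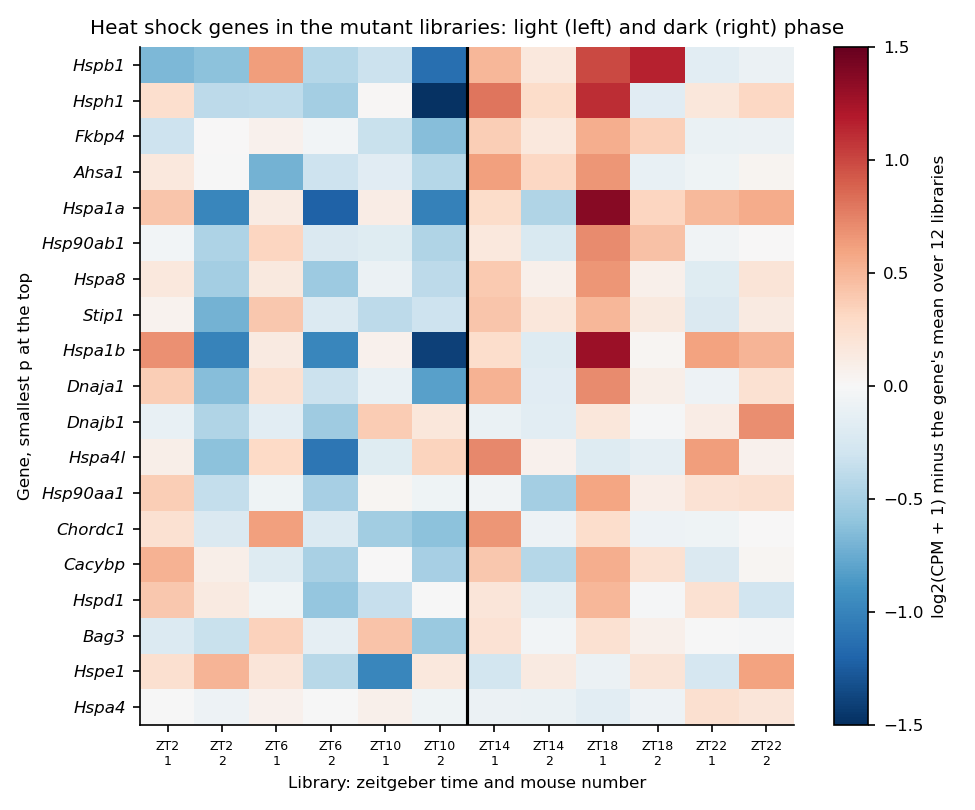
Heat map of the 19 heat shock genes (rows, smallest p at the top) in the 12 mutant libraries (columns by zeitgeber time and mouse), with colour for log2(CPM + 1) minus the gene's mean over the 12 libraries. The upper 10 rows are reddest in the first mouse of ZT18 and bluest in the second mice of ZT2, ZT6 and ZT10, and the lower rows show less contrast between the phases.

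The promoters of heat shock genes are shown because this list held the highest share of members at that p. A heat shock element is built from inverted repeats of GAA. A short paired form, GAANNTTC, was searched on both strands of RefSeq windows from 250 bases before to 50 bases after the transcription start (GRCm38.p6). The reverse order of the pair, TTCNNGAA, was not searched, so it is not counted or marked here, also where it occurs, as in Hsph1. GAANNTTC was found in 9 of the 16 heat shock genes that had a window, against 7.86% of 32851 windows searched. The longer heat shock element, in which 2 further bases and a GAA follow it, was found in 3 of the 16, against 0.603% of all windows. Such a match is a description of these letters and not evidence of binding. The 250 bases before the start are given below for the 4 members of smallest p with a window, 5′ to 3′ on the strand of the gene, with the matches to GAANNTTC in capitals. Hspb1 lies on the plus strand at chr5:135887669-135887918, Hsph1 on the minus strand at chr5:149636337-149636586, Fkbp4 on the minus strand at chr6:128438657-128438906 and Ahsa1 on the plus strand at chr12:87266478-87266727. Hspb1 holds 2 matches in this stretch and Fkbp4 holds 1. That of Hsph1 lies in the 50 bases after the start, which are not printed, and Ahsa1 has none in its window.
Hspb1: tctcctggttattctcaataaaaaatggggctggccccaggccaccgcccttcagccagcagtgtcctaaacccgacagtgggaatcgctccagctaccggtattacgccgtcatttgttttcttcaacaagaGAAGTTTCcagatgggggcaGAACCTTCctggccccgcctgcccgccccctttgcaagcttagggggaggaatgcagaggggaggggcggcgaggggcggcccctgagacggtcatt
Hsph1: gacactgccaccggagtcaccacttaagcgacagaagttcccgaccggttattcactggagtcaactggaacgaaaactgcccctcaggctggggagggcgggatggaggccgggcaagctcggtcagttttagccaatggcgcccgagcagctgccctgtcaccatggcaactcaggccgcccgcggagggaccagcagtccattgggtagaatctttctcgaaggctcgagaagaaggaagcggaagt
Fkbp4: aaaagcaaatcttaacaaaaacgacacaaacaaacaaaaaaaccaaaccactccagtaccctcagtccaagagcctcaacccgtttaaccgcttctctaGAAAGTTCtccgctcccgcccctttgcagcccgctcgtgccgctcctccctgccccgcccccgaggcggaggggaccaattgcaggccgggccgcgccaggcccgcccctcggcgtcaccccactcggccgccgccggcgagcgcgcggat
Ahsa1: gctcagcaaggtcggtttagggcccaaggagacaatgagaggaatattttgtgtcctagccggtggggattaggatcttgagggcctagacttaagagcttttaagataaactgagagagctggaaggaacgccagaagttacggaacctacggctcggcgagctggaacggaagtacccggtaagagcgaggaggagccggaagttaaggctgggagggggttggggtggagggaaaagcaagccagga

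Immediate-early genes, which cells switch on within minutes of a stimulus, tissue dissociation included, had a median log2 fold change of 0.19. Of 23 tested, 19 were positive, 4 were at an unadjusted p under 0.05 with the dark higher and 0 with the dark lower. The 4 were Klf2, described above, Klf4, Jund and Maff. Klf4, a relative of Klf2, had 342 to 1271 CPM in the light, median 663, and 696 to 1542 CPM in the dark, median 737. Jund, which encodes a subunit of the AP-1 factor, had 159 to 312 CPM in the light, median 247, and 272 to 388 CPM in the dark, median 332. Maff, a small Maf factor, had 7.75 to 61.3 CPM in the light, median 20.6, and 25.7 to 67.0 CPM in the dark, median 30.2. Their log2 fold changes were 0.47 (Klf4), 0.49 (Jund) and 0.69 (Maff). The groups of these 3 overlapped, and both ZT6 mice lay within the range of the dark phase in each. The genes used most often as signs of dissociation were also on the list. The log2 fold changes were 0.14 (standard error 0.27) for Fos, -0.17 (0.26) for Egr1 and 0.32 (0.34) for Atf3, none at that p. Their levels depended more on the time point. Fos had means of 627 and 572 CPM at ZT2 and ZT14, against 1519, 1330, 1869 and 1458 CPM at ZT6, ZT10, ZT18 and ZT22. Without the first ZT10 mouse the count of 4 was 10, and without ZT14 it was 8. It was 2 with the markers of other cell types as covariates and 2 without the covariate for the series, and the list median was -0.085 without ZT22.

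The genes encoded in the mitochondrial genome, which specify subunits of the respiratory chain, were on the opposite side. Of 13 tested, 12 were negative, 5 were at an unadjusted p under 0.05 with the dark lower (against 2.60% of all genes) and 0 with the dark higher, with a list median of -0.33. The 5 were mt-Nd3, mt-Nd2, mt-Nd5, mt-Nd4 and mt-Cytb, and their log2 fold changes ran from -0.72 (mt-Nd3) to -0.38 (mt-Nd4). For mt-Nd2 the mean levels were 4748, 1338 and 2762 CPM at ZT2, ZT6 and ZT10 and 2396, 1183 and 2307 CPM at ZT14, ZT18 and ZT22. The ZT2 mice, at 5462 and 4033 CPM, were the highest of the 12. Without ZT2 the list median was -0.0079 and 0 of the 13 genes were at that p, and leaving out only the first ZT2 mouse also gave 0. Without ZT22, or without the covariate for the series, the count was 0 as well, and without the first ZT10 mouse it was 9. The share of all reads that mitochondrial genes took was 14.3% and 12.7% at ZT2, 5.78% and 9.20% at ZT10, 7.89% and 10.7% at ZT14, and 6.92% and 7.16% at ZT22, so that 1 light-phase mouse, at ZT10, was below all 4 of these dark-phase mice. Nuclear genes of the respiratory chain were at 52 positive of 75, 2 of them at an unadjusted p under 0.05 with the dark higher (Atp5o, log2 fold change 0.56, and Atp5d, 0.37), with a median of 0.081. That count of 2 ran from 1 to 5 on leaving out single mice, with 5 without the second ZT10 mouse, and it was 7 without ZT2.

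**Figure D3:**
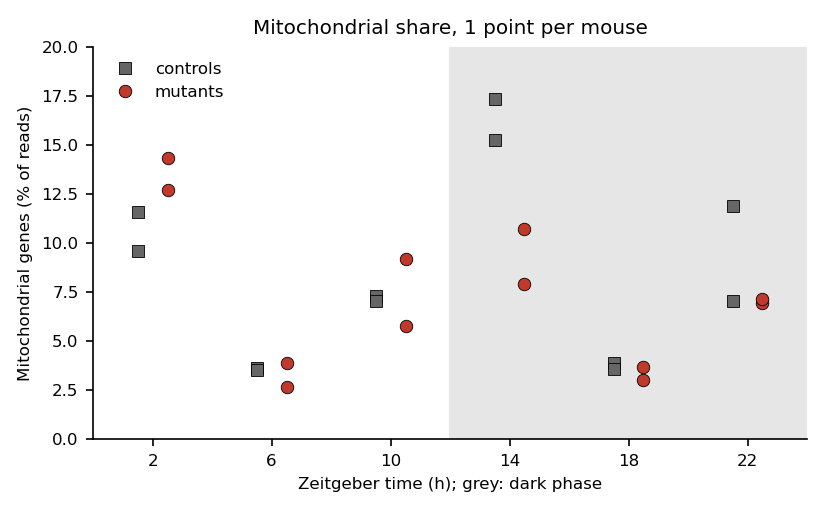
Share of reads on mitochondrial genes, in percent, against zeitgeber time in hours, with 1 point per mouse (circles for mutants, squares for controls). The highest mutant libraries are those of ZT2, at 12.7% and 14.3%, the highest control libraries those of ZT14, and ZT6 and ZT18 are lowest in both genotypes.

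Of the 13 core clock genes, 1 was at an unadjusted p under 0.05. This was Nr1d1, which encodes the repressor REV-ERBα and is normally switched on by BMAL1. It had 3.30 to 31.1 CPM in the light, median 14.8, and 1.92 to 16.2 CPM in the dark, median 3.35, with a dark-light log2 fold change of -1.65 ± 0.53 (SE, n = 12, adjusted p = 0.873, exact permutation p = 0.0286). The 2 ZT6 mice held 3.30 and 31.1 CPM, so that the highest light-phase value stood beside the lowest, and leaving out single mice moved the log2 fold change between -2.26 and -0.9973. Nr1d2 (-0.88, standard error 0.44) and Per3 (-0.80, standard error 0.42) also had negative values, which leaving out single mice moved between -1.22 and -0.31 and between -1.03 and -0.21. The count of 1 with the dark lower was 3 without the first ZT2 mouse, the second ZT6 mouse or the first ZT14 mouse, and 0 without ZT18, and that of 0 with the dark higher was 3 without the second ZT22 mouse. The positive-arm genes had 0.46 for Arntl, 0.71 for Npas2 and 0.047 for Clock, and Cry1, Cry2, Per1 and Per2 had values between 0.076 and 0.30. The lowest Npas2 value, 0 CPM, was that of 1 light-phase mouse. Rora and Rorb were at -0.053 and -0.31. Among 10 clock output genes, Dbp, an activator that recognises D-boxes, had 8.44 to 43.7 CPM in the light, median 21.6, and 4.06 to 21.1 CPM in the dark, median 8.56 (log2 fold change -1.06 ± 0.41 SE, exact permutation p = 0.0905). Its means were 11.5, 24.1 and 36.1 CPM in the light and 21.0, 7.91 and 6.102 CPM in the dark, so that ZT14 lay nearer to ZT6 than to ZT18. Nfil3, the repressor that competes for D-boxes, had 6.51 to 12.0 CPM in the light, median 8.95, and 8.996 to 18.2 CPM in the dark, median 16.6 (log2 fold change 0.77 ± 0.28 SE, exact permutation p = 0.0143), and 1 dark-phase mouse, at ZT14, lay within the light-phase range. Tef and Hlf had log2 fold changes of 0.0022 and -0.063. Ciart, Bhlhe40, Bhlhe41, Usp2, Wee1 and Tspan4 ran from -0.32 (Tspan4) to 0.21 (Bhlhe40). In controls the same contrast gave -2.02 for Nr1d1, -1.69 for Dbp and 0.75 for Nfil3. The difference between the genotypes had adjusted p = 0.997, 0.997 and 0.999 (edgeR's quasi-likelihood test), and its size was 0.38 ± 0.81, 0.62 ± 0.85 and 0.029 ± 0.75 (log2, mutant minus control, ± SE). Pooling the time points of a phase does not measure the amplitude over the day, and peaks near a change of the lights largely escape it. Whether the rhythm of these genes differed between the genotypes was therefore not tested.

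**Figure D4:**
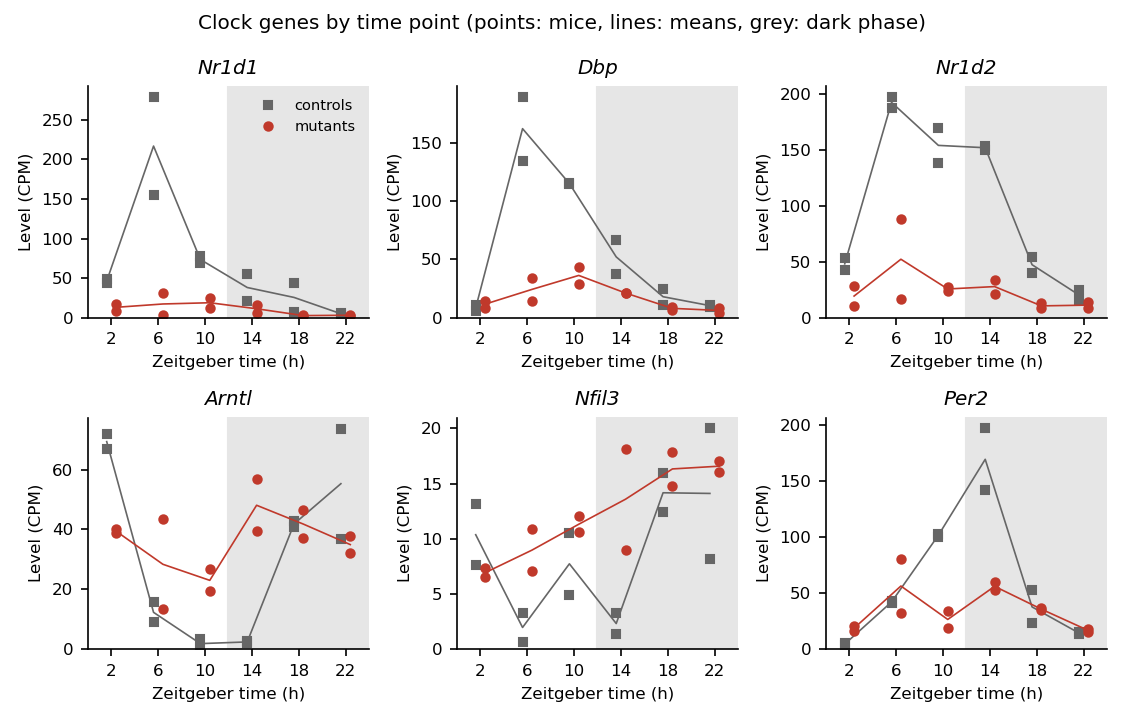
Level in CPM of 6 clock genes against zeitgeber time in hours in mutants (red circles) and controls (grey squares), with 1 point per mouse and a line through the means. The mutant means of Nr1d1 stay under 20 CPM at every time point, those of Dbp are highest at ZT10 and lowest at ZT22, and the mutant levels of Arntl and Per2 vary less between time points than those of the controls.

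Glucocorticoid target genes respond to corticosterone, whose level peaks around the onset of activity in mice. Of 20 tested, 17 had a positive log2 fold change, 3 were at an unadjusted p under 0.05 with the dark higher and 0 with the dark lower, with a median of 0.18. Dusp1, a phosphatase of stress kinases, had 348 to 1178 CPM in the light, median 569.8, and 491 to 1382 CPM in the dark, median 749.8. The cell cycle inhibitor gene Cdkn1a had 97.8 to 228 CPM in the light, median 147, and 83.0 to 328 CPM in the dark, median 230.2. The groups of both overlapped, and ZT18 had the highest mean of each. The third was Map3k6, a kinase gene, with 2.94 to 54.9 CPM in the light, median 25.2, and 13.5 to 128 CPM in the dark, median 47.5. Map3k6 was at 128 and 122.7 CPM in the 2 ZT14 mice, the highest of the 12, and at 3.34 and 2.94 CPM at ZT2, the lowest. Its log2 fold change of 1.33 was 0.20 without ZT14, and it was the other gene called with the time points as separate levels (adjusted p = 0.0478). Fkbp5 and Zbtb16, which glucocorticoids induce strongly, also had their highest means at ZT14, 43.4 and 212 CPM, and their lowest at ZT2, 9.37 and 10.5 CPM. Over the whole phases their log2 fold changes were 0.17 (standard error 0.40) and 0.46 (standard error 0.60), and the means of ZT18 and ZT22 lay below those of ZT6 and ZT10. Tsc22d3 and Sgk1 were at 0.19 and 0.27. The count of 3 depended on single mice, being 0 without the second mouse of ZT2, ZT14 or ZT18 and 6 without the first mouse of ZT10. It was also 0 with the markers of other cell types as covariates and 0 without the covariate for the series, and 7 with the time points as separate levels. Without ZT14 the log2 fold changes of Fkbp5 and Zbtb16 were -0.66 and -0.83.

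Interferon-response and MHC class I genes mostly had negative log2 fold changes. Of 23 tested, 20 were negative, 4 were at an unadjusted p under 0.05 with the dark lower and 1 with the dark higher, with a median of -0.18. Tap1, which moves peptides to MHC class I molecules, had 31.6 to 66.6 CPM in the light, median 44.2, and 25.2 to 35.9 CPM in the dark, median 30.1 (log2 fold change -0.59 ± 0.19 SE), and its groups did not overlap within either series. Ifit3, Ifit3b and Oasl2, antiviral effector genes, had log2 fold changes of -0.43, -0.77 and -0.39. Ifi27 was the exception, at 15.9 to 40.9 CPM in the light, median 29.0, and 34.3 to 50.9 CPM in the dark, median 39.2 (log2 fold change 0.52). Reads can be shared between the close relatives Ifit3 and Ifit3b. For Tap1 and Ifit3 the first ZT2 mouse was the highest of the 12, and without it 1 gene in place of 4 was at that p and the list median was -0.039. The count was also 1 without the second ZT14 mouse and 1 with the markers of other cell types as covariates. Over the ZT6 and ZT18 libraries alone the median was 0.031.

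Transport and barrier genes carry the functions for which this endothelium is known. Of 21 nutrient and organic anion carriers, 4 were at an unadjusted p under 0.05 with the dark higher and 2 with the dark lower, and the median was -0.044. The glucose transporter gene Slc2a1 had 1356 to 2323 CPM in the light, median 1684, and 1244 to 3622 CPM in the dark, median 2505 (log2 fold change 0.43 ± 0.19 SE). Its highest mean was that of ZT14 (3126 CPM) and its lowest that of ZT22 (1329 CPM), both in the dark, and without ZT14 the log2 fold change was -0.031. The lipid carrier gene Mfsd2a (0.42) also had its highest mean at ZT14, and its log2 fold change was 0.11 without ZT14. The thiamine transporter gene Slc19a3 (0.29) had its highest mean at ZT18, and the fourth was the glutamine transporter gene Slc38a3 (0.30). The monocarboxylate transporter gene Slc16a1 had 333 to 524 CPM in the light, median 365, and 221 to 381 CPM in the dark, median 316 (log2 fold change -0.37). The transferrin receptor gene Tfrc had 336 to 619.8 CPM in the light, median 491, and 299 to 487 CPM in the dark, median 368 (log2 fold change -0.33). The groups of both overlapped. The count of 4 was 0 without the first ZT10 mouse and 1 without either ZT14 mouse, and it was 1 with the markers of other cell types as covariates. Among 21 ABC transporters, 1 was at that p on each side, Abca3 (0.27) and Abcc1 (-0.62). Among 13 magnesium transport genes these were the channel gene Trpm6 (0.48) and Magt1 (-0.39). Of 15 junction genes, Cldn5, the main claudin of brain endothelium, had 726 to 1089 CPM in the light, median 876, and 926 to 1286 CPM in the dark, median 1149 (log2 fold change 0.35 ± 0.12 SE, adjusted p = 0.885). In Cldn5, 5 of the 6 dark-phase mice were above 5 of the 6 light-phase mice. Of the 15, 2 were at that p with the dark higher, Cldn5 among them, and 0 with the dark lower. The count of 2 was 1 without 8 of the 12 single libraries in turn and 1 without the covariate for the series.

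Genes of vascular tone, clotting and vessel identity were described in the same way. Of 11 tone and haemostasis genes, 3 were at an unadjusted p under 0.05 with the dark higher. Nos3, the endothelial nitric oxide synthase, had 281 to 441 CPM in the light, median 341, and 319 to 557 CPM in the dark, median 422. Plat, tissue plasminogen activator, had 204 to 393 CPM in the light, median 301, and 216 to 668 CPM in the dark, median 439. Thbd, the anticoagulant receptor thrombomodulin, had 228 to 428 CPM in the light, median 394, and 357 to 582 CPM in the dark, median 419.6. Their log2 fold changes were 0.31 (Nos3), 0.52 (Plat) and 0.29 (Thbd), and the groups of all 3 overlapped. Plat was highest at ZT14 (mean 582 CPM), and without ZT14 its log2 fold change was 0.14. The count of 3 was 0 without ZT6, ZT14 or ZT18, and 0 with the markers of other cell types as covariates. The Notch ligand gene Dll4, a marker of arteries, had 88.9 to 134 CPM in the light, median 99.8, and 116 to 147 CPM in the dark, median 138 (log2 fold change 0.36 ± 0.11 SE), separated within each series, and 9 of 11 arterial genes were positive with a median of 0.20, which was 0.089 with the markers of other cell types as covariates. Of 8 venous and leukocyte adhesion genes 1 was at that p, Vwf, which encodes von Willebrand factor and had 473 to 1083 CPM in the light, median 704, and 816 to 1191 CPM in the dark, median 995 (log2 fold change 0.38). Lamb2 of the basement membrane (0.27) and Nkd1 of the Wnt pathway (0.27) were the single genes at that p among 12 basement membrane and 17 Wnt genes. Of 13 genes of VEGF and Tie signalling, 0 were at it in either direction, with Tie1 at 0.26 and Aplnr at -0.38.

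Among metabolic lists, hypoxia and glycolysis genes held 3 of 16 at an unadjusted p under 0.05 with the dark higher. Besides Ldha these were Tpi1, a glycolytic enzyme gene, with a log2 fold change of 0.45, and Adm, which encodes the vasodilator peptide adrenomedullin. Adm had 1.86 to 7.42 CPM in the light, median 4.43, and 4.86 to 14.5 CPM in the dark, median 11.7 (log2 fold change 1.37 ± 0.38 SE), and only 1 dark-phase mouse, at ZT14, lay below the highest light-phase mouse. The 23 cholesterol synthesis genes, with a median of -0.012, held Sqle (1.01) and Ebp (0.73) on one side and Msmo1 (-0.65) on the other. That count of 2 was 0 without the second ZT2 or ZT18 mouse or the first ZT6 or ZT14 mouse. The 14 fatty acid synthesis genes held Acacb (0.45) and Scd1 (-0.32), and the value of Acacb was 0.068 without ZT14. Of 22 genes on the fasting list, 1 was at that p on each side. Over all genes the shares were 2.81% with the dark higher and 2.60% with the dark lower. In the fasting list Irs2, an insulin receptor substrate, had 19.2 to 29.1 CPM in the light, median 22.4, and 21.3 to 42.1 CPM in the dark, median 32.8 (0.42) and did not overlap within either series, and Cpt1a, the gate of mitochondrial fatty acid import, was at -0.29. Of 84 ribosomal protein genes, 62 were positive, 5 were at that p with the dark higher and 0 with the dark lower, with a median of 0.093. The 5 included Rpl8 (0.25) and the copy gene Rps3a2 (1.10), whose reads can be shared with its parent gene. Leaving out single mice moved this count between 3 and 14, the latter without the second ZT10 mouse. It was 1 without ZT6 and 0 without ZT18, and with the markers of other cell types as covariates it was 9. Endoplasmic reticulum chaperones (20 tested), ATF4 targets (19), aminoacyl-tRNA synthetases (20) and proteasome subunits (38) held at most 1 gene at that p on a side, with medians between -0.0245 and 0.0975. NAD and sirtuin genes (14) and cell cycle genes (14) held 0.

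**Figure D5:**
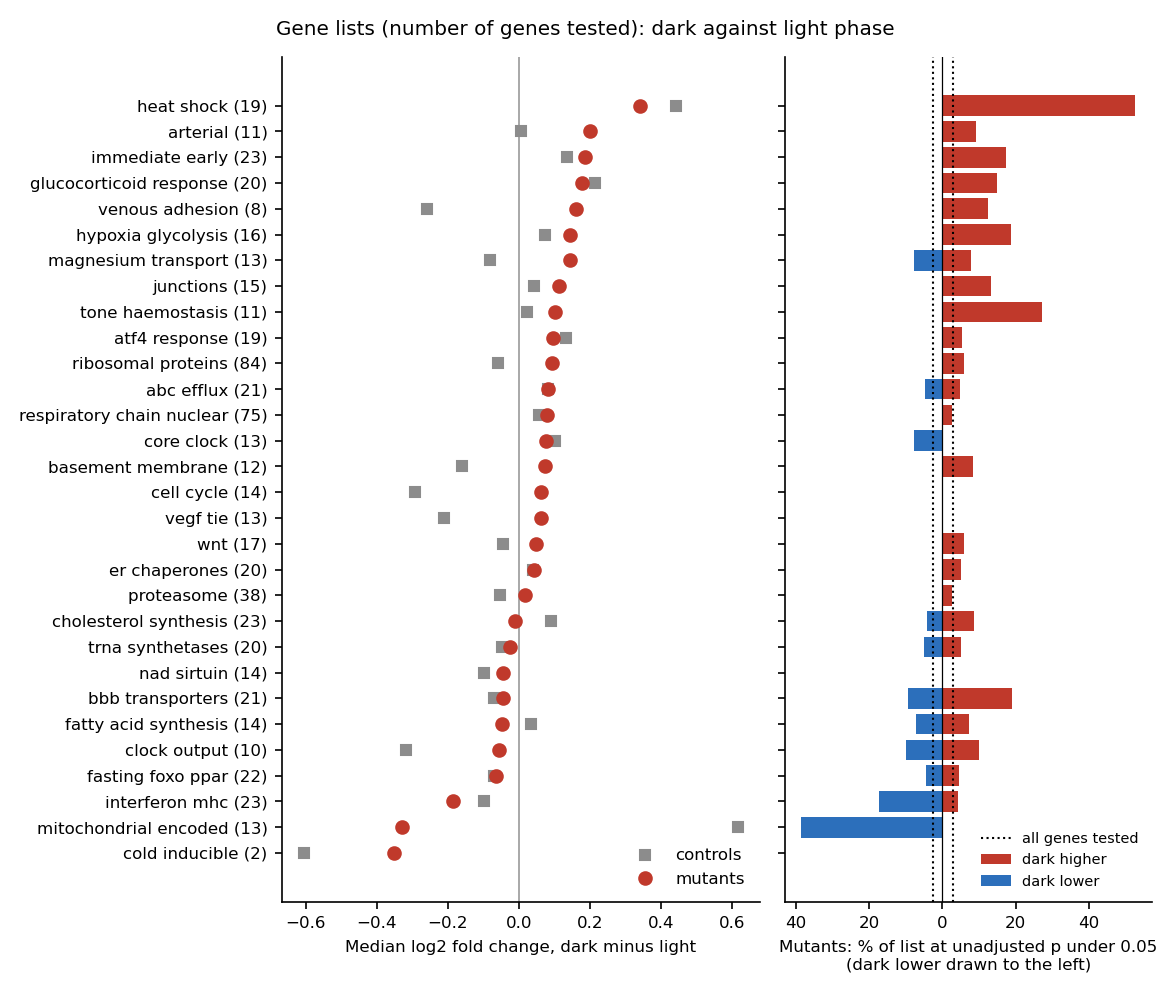
Gene lists in rows, with the number of genes tested, ordered by the median log2 fold change in mutants. The left panel gives the median of dark minus light in mutants (red circles) and controls (grey squares), and the right panel the percentage of each list at an unadjusted p under 0.05 in mutants (red, dark higher; blue, drawn to the left, dark lower), with dotted lines at 2.81% and 2.60% for all genes. Of the lists drawn, which leave out the cell type markers and the sex-linked genes, heat shock genes lie at one end of the mutant order, and cold-inducible and mitochondrially encoded genes at the other.

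Markers of other cell types were summed in each mutant library. Microglial markers ran from 251 to 5225 CPM in the light (median 3809) and from 280.0 to 5222 CPM in the dark (median 2650). Of 9 tested, 1 was at an unadjusted p under 0.05 with the dark lower (P2ry12, log2 fold change -0.48). This count was 4 without the second ZT22 mouse or without the filter on low counts, and 0 without the covariate for the series. In the fit with cell type markers as covariates, 2 microglial markers were at that p with the dark higher and 1 with the dark lower. The sum of the microglial markers is itself a covariate in that fit, so this split does not measure a change in microglia. Astrocyte markers ran from 721 to 3288 CPM in the light and from 766 to 1989 CPM in the dark, and 2 of 7 were at that p with the dark lower (Aqp4, -0.53, and Slc1a2, -0.40). This count of 2 was 0 without the first ZT6 mouse, without the second ZT10 mouse and without the covariate for the series. Pericyte markers ran from 1721 to 3912 CPM and from 1633 to 3282 CPM, with 0 of 9 at that p, and smooth muscle markers from 194 to 1261 CPM and from 338 to 1390 CPM, with 0 of 6, a count that was 4 without the filter on low counts, where Tagln and Acta2 were called (adjusted p = 0.0216 and 0.0205). All 6 smooth muscle markers had positive log2 fold changes, with a median of 0.47. Red cell markers ran from 234 to 778 CPM and from 307 to 1126 CPM. Oligodendrocyte markers ran from 347 to 1668 CPM and from 513 to 1939 CPM, and neuronal markers reached at most 116 CPM. Summed leukocyte markers ran from 4.56 to 139.7 CPM in the light and from 4.39 to 138.8 CPM in the dark. Ptprc had 4.24 to 135.7 CPM, Cd52 at most 3.69 CPM and S100a9 at most 1.41 CPM. Of 2 tested, Ptprc (-0.41) and Cd52 (-0.79), both were negative, with a median of -0.60, and 0 were at that p. Cd3e and S100a8, markers of T cells and neutrophils, had 0 reads in all 12 mutant libraries. Ttr, the transthyretin gene of the choroid plexus, had 272 to 1898 CPM in the light, median 1282, and 494 to 2881 CPM in the dark, median 1778 (log2 fold change 0.57). It was the 1 of 3 markers of choroid plexus and ependyma at that p, all 3 of which were positive with a median of 0.57, and the count was 0 with DESeq2, without ZT6 or ZT18 and without the covariate for the series. Of 5 fibroblast markers 3 were positive, with Col1a1 at 0.82 and a median of 0.25, and 1 was at that p with the dark lower, Pdgfra (-0.89), a count that was 0 without 7 of the 12 single libraries in turn. Of 4 macrophage markers 3 were negative and 1 was at that p, F13a1 (-1.65). Of the 11 endothelial markers 3 were at that p with the dark higher, Cldn5, Slc2a1 and Ly6c1, and the count was 1 without the first ZT10 mouse, without either ZT14 mouse and with the markers of other cell types as covariates. The part that these cells play in the results above was not tested beyond the fit with their markers as covariates.

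The same contrast in the 12 control libraries, which share no sample with the mutants, was set beside that of the mutants. In controls 1 gene passed, Slc5a3, the myo-inositol transporter that cells induce under osmotic stress, with a log2 fold change of 1.13 (adjusted p = 0.0347, edgeR's quasi-likelihood test), a call lost without the covariate for the series, without further normalization and with the replicate number as a block, and 373 genes (2.41%) were higher and 320 (2.07%) lower in the dark at an unadjusted p under 0.05. In mutants Slc5a3 had 42.1 to 78.4 CPM in the light, median 61.9, and 47.5 to 86.3 CPM in the dark, median 63.9, a log2 fold change of 0.099 (standard error 0.17). Of the 436 genes higher in the dark in mutants, 30 were also higher in controls (6.88% of the mutant genes, 8.04% of the control genes), and of the 403 lower, 14 were also lower (3.47% and 4.38%). In opposite directions were 11 genes higher in mutants and lower in controls (2.52% and 3.44%) and 14 lower in mutants and higher in controls (3.47% and 3.75%), so that among the genes lower in mutants as many went against the controls as with them. When the difference of the dark-light change between genotypes was itself tested, 0 of 15493 genes had an adjusted p under 0.05 and 795 (5.13%) an unadjusted p under 0.05, with a lowest adjusted p of 0.234 (edgeR's quasi-likelihood test). DESeq2 called 4 genes in that test. The lowest p was that of Gprasp1, which had 63.5 to 91.1 CPM in the light, median 81.5, and 60.2 to 82.2 CPM in the dark, median 72.0, in the mutants. Its log2 fold change was -0.18 in mutants and 0.70 in controls, a difference of -0.88 ± 0.17 (SE). On the other side Elovl1, Ehd1, Trim47 and Uqcc3 had positive values in mutants, from 0.37 (Trim47) to 0.73 (Uqcc3), and negative values in controls, from -0.61 (Uqcc3) to -0.32 (Trim47), with adjusted p = 0.74 for the difference of each. Of the mitochondrially encoded genes, 11 of 13 had an unadjusted p under 0.05 for the difference, all with an adjusted p of 0.740 or more. Their median was -0.33 in mutants and 0.62 in controls, where the ZT14 libraries had the highest mitochondrial share, at 15.3% and 17.4%, and a second barcode index that the ZT2 and ZT10 controls do not have. In controls the index therefore cannot be told apart from the phase outside ZT6 and ZT18, whereas in mutants it is balanced. Heat shock genes had a median of 0.44 in controls, with 13 of 19 at an unadjusted p under 0.05 and the dark higher, and 1 of 19 at that p for the difference. No heat shock gene passed the test of the difference over all genes.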

How the data were processed

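RNA was sequenced from CD31-positive brain cells of 24 mice, 1 library per mouse, with 2 mice at each of 6 time points in 2 genotypes. The authors aligned reads to GRCm38 with STAR 2.5.3a, used SAMtools 1.3.1, and deposited whole-number counts per gene, which they had resampled to similar depth, so that the mutant totals run only from 6136404 to 6577585 and no longer show the sequencing depth. Counts were used as deposited.

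Genes with 5 or more reads in 6 or more mice of either genotype were tested, 15493 of 53465. Dark was compared with light in the 12 mutants by edgeR's quasi-likelihood test (edgeR 4.0.16, R 4.3.3) with TMM normalization and the series (ZT6 and ZT18 libraries against the others) as covariate, and p-values were adjusted over all genes tested by the Benjamini-Hochberg method. The 12 controls were fitted in the same way, and the genotype difference in 1 model of 24 libraries. Levels are CPM with TMM factors over 24 libraries. Exact two-sided permutation tests on log2(CPM + 1) exchanged phases within series (420 arrangements, smallest possible p 0.00476). Genes named are the clock genes, the 10 of smallest p on each side, up to 4 of smallest p in each list and 5 on each side of the genotype difference. Other genes, among them Fos, Egr1, Atf3, Fkbp5, Zbtb16, Tsc22d3, Slc38a3, Hsp90aa1, Dnajb1 and further heat shock genes, were named after their values were seen. Members and lists were chosen with earlier results of these data known. The fits were tested on simulated data. Alternatives were other normalizations, filters and covariates, DESeq2 1.42.0, and leaving out each library or time point.

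Replicates are separate mice, and time points within a phase were pooled, so that the spread includes that between time points. Replicate numbers do not mark shared litters or days in the labels. Motifs were searched and figures drawn with Python 3.11.15, NumPy 2.4.6 and matplotlib 3.10.9. Some results are not reported here.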

Additional observations from a re-analysis of the deposited data

Results flagged for a closer look

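Of the values given above, 127 genes and the summed markers were searched for a mouse far from the other 5 of its phase, by Dixon's ratio of the gap to the nearest mouse over the whole range. Over 286 groups 10 exceeded the 95% critical value for 6 mice, and chance alone gives about 1 in 20. In the light phase the first ZT6 mouse was high for Nr1d2 (88.0 against 28.4 CPM in the next mouse, ratio 0.766), Per2 (80.9 against 33.9 CPM, ratio 0.731) and Hspb1 (148 against 76.1 CPM, ratio 0.685). The second ZT6 mouse was high for Tie1 (648 against 441 CPM, ratio 0.719) and Gstm4 (8.33 against 4.89 CPM, ratio 0.711), and the second ZT10 mouse was low for Thbd (228 against 355 CPM, ratio 0.637).

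In the dark phase the second ZT14 mouse was high for Nr1d1 (16.2 against 6.11 CPM, ratio 0.707) and for the summed red cell markers (1126 against 589 CPM, ratio 0.656), and low for Nfil3 (8.996 against 14.8 CPM, ratio 0.627). The second ZT22 mouse was high for Dnajb1 (211 against 146 CPM, ratio 0.686).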

How the results depend on the processing

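Under the alternatives to edgeR with TMM and the filter used here, DESeq2 called 6 genes for dark against light in mutants, 7 in controls and 4 for the genotype difference, and testing all genes with 1 read or more called 41, 66 and 28. Time points as separate levels called 2 genes in mutants. The single control call, Slc5a3, became 0 without further normalization, without the series covariate and with the replicate number as a block. The cause of these changes was not tested. Leaving out single mutant libraries left the count at 0 throughout, with 623 to 1006 genes at an unadjusted p under 0.05, and 498 without ZT14. Over ZT6 and ZT18 alone that count was 772, and over the other 4 time points alone 732. The log2 fold change of Slc2a1 was -0.031 without ZT14 and that of Gm44144 -1.22 over ZT6 and ZT18 alone, both positive otherwise.

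With the replicate number as a block, 0 genes were called in mutants and 843 had an unadjusted p under 0.05. The numbers follow the order of the labels and share no litter or day in them. The deviations of same-numbered mice in 15 pairs of time points correlated between -0.014 and 0.059, 0 of them over 0.1, so that no pairing by these numbers was seen. The paper describes independent experiments, and the labels do not say which mice belong to each. A block shared by mice in another way was not tested.

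Of 8728 log2 fold changes of 283 genes under the alternatives, 394, from 101 genes, had the opposite sign to that in the fit reported, and of 1331 medians of 43 lists 99 did, from 26 lists. Among those of the 283 genes that were at an unadjusted p under 0.05 in the fit reported, Slc2a1 and Gm44144 were the 2 whose sign turned. In 33 cases a gene of the 283 passed an adjusted p of 0.05 that it did not pass above. The common biological coefficient of variation of 40.5% and the few reads of genes such as Dscam limit what 6 mice per phase can show.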
